A study of Mus musculus with 8 samples.

Results

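Described here are 38 listed genes of fibroblasts and non-collagen matrix, matched by symbol among the 43629 genes of the deposited count table, where all 38 were found. They cover fibroblast surface and transcription factor genes, PDGF ligands and receptors, fibronectin and basement membrane, matricellular proteins, proteoglycans, elastic fibres with their crosslinking enzymes, and a podosome scaffold. Connective tissue of the gut wall is made by fibroblasts and their relatives, which line the crypts, sit in the core of the villi and wrap vessels and muscle. Beside collagen they lay down fibronectin, proteoglycans, elastic fibres and the matricellular proteins, which sit in the matrix and act on cells more than they bear load. In intestinal tumors such cells form the stroma around the epithelium, and PDGF from epithelium and vessels is a main signal that recruits and maintains them.

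Polyadenylated RNA was sequenced from 4 tumor libraries (titled C1 to C4) and 4 small intestine libraries (titled M1 to M4). All 8 come from APC mutant mice on a C57B6/129 strain background and are labelled as untreated, so both tissues carry the mutation, and no library is labelled as given the corn syrup of the study's title. The Apc allele, the age and sex of the mice, and whether the small intestine was taken as whole wall or as mucosa were not given in the sources used here. Nothing says whether the libraries of a tissue are different mice, so the p-values measure only how these samples differ from one another, which may be technical.

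Reads assigned to genes totalled 53856561 to 67371180 in each tumor library and 62347648 to 84433335 in each small intestine library. Values are in CPM, read counts relative to a TMM-scaled library size, a correction for library composition. Apc itself was at 131.7 to 145.3 CPM in the tumor libraries, against 88.9 to 144.6 CPM in the others, and gene counts cannot tell mutant and normal transcripts apart. Epithelial markers were abundant in both tissues, 10 of them summing to 6779 to 9118 CPM in tumor and 18889 to 25715 CPM in small intestine. Markers of the muscle and nerve layers summed to less than the epithelial ones. The 10 smooth muscle genes summed to 179 to 217 CPM in tumor, against 42.2 to 119 CPM in small intestine. The 9 glial and neuronal genes summed to 17.8 to 47.5 CPM in tumor, against 7.41 to 16.6 CPM in small intestine. Ret among them averaged 28.0 CPM in tumor, against 9.79 CPM in small intestine. The glial genes Gfap and S100b averaged 0.0584 and 0.153 CPM in tumor, against 0.0312 and 0.0446 CPM in small intestine, and Sox10, a glial transcription factor gene, averaged 0.0212 CPM in tumor, against 0 counts in all 4 small intestine libraries.

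Of the 38 genes, 33 rose in tumor, 2 fell (Fap and Pdgfa) and 3 did not pass the test (Thy1, Fmod and Ogn). Over all 17029 genes tested, 38.9% rose and 35.4% fell by the same criterion, a Benjamini-Hochberg adjusted p under 0.05 in the quasi-likelihood test of edgeR. The median log2 fold change, tumor over small intestine, was 4.07 over the 38 genes, which all passed the filter on low counts, and 0.07 over all genes tested. Changes were large: 32 of the 38 rose at least 2-fold, against 27.9% of all genes, and 21 rose by at least 4 on the log2 scale, against 6.53% of all genes. The 4 tumor libraries did not overlap the 4 small intestine libraries for 34 of the 38 genes, with 32 higher in tumor (37.5% of all genes) and 2 lower (33% of all genes). Added up over the 38 genes, tumor replicates 1 to 4 held 3599, 3267, 3009 and 2687 CPM, against 281, 244, 219 and 248 CPM in small intestine replicates 1 to 4. In these bulk samples, more fibroblasts in tumor, more RNA of these genes per fibroblast and their RNA in other cells cannot be told apart.

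**Figure D1:**
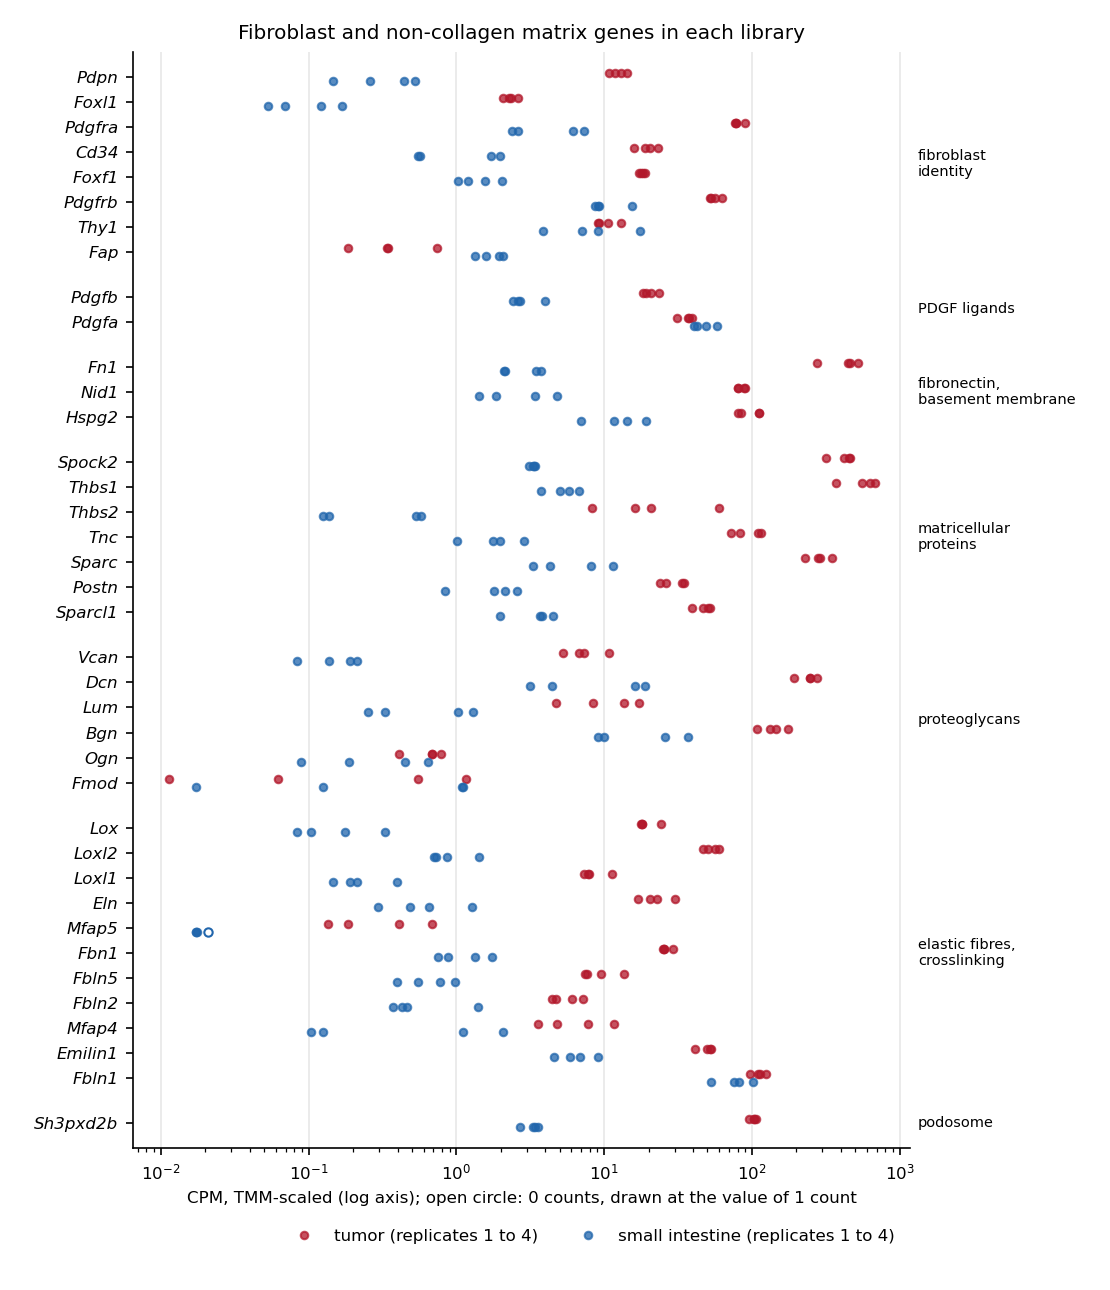
TMM-scaled CPM (log axis) of each of the 38 genes in the 4 tumor and 4 small intestine libraries, 1 point per library, grouped by role and ordered by fold change. The tissues stand apart for 34 genes and overlap for Thy1, Fmod, Ogn and Fbln1; the open circle marks Mfap5 at 0 counts in small intestine replicate 3.

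The direction of all but a few of these genes did not depend on the scaling between tissues. Scaling by library totals alone moved the median of all genes up by 0.86 on the log2 scale, and 36 of the 38 genes were then called higher (62% of all genes) and 1 lower (17.6%). Pdgfa turned to 0.48 (edgeR adjusted p = 0.00227), Fmod, not called either way, to 0.41, and Fap stayed lower at -1.27 (edgeR adjusted p = 0.0194). Thy1 and Ogn were called higher with library totals, at 1.03 and 1.76 (edgeR adjusted p = 0.0402 and 0.0131). Each of the 33 genes that rose with TMM also rose with library totals.

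**Figure D2:**
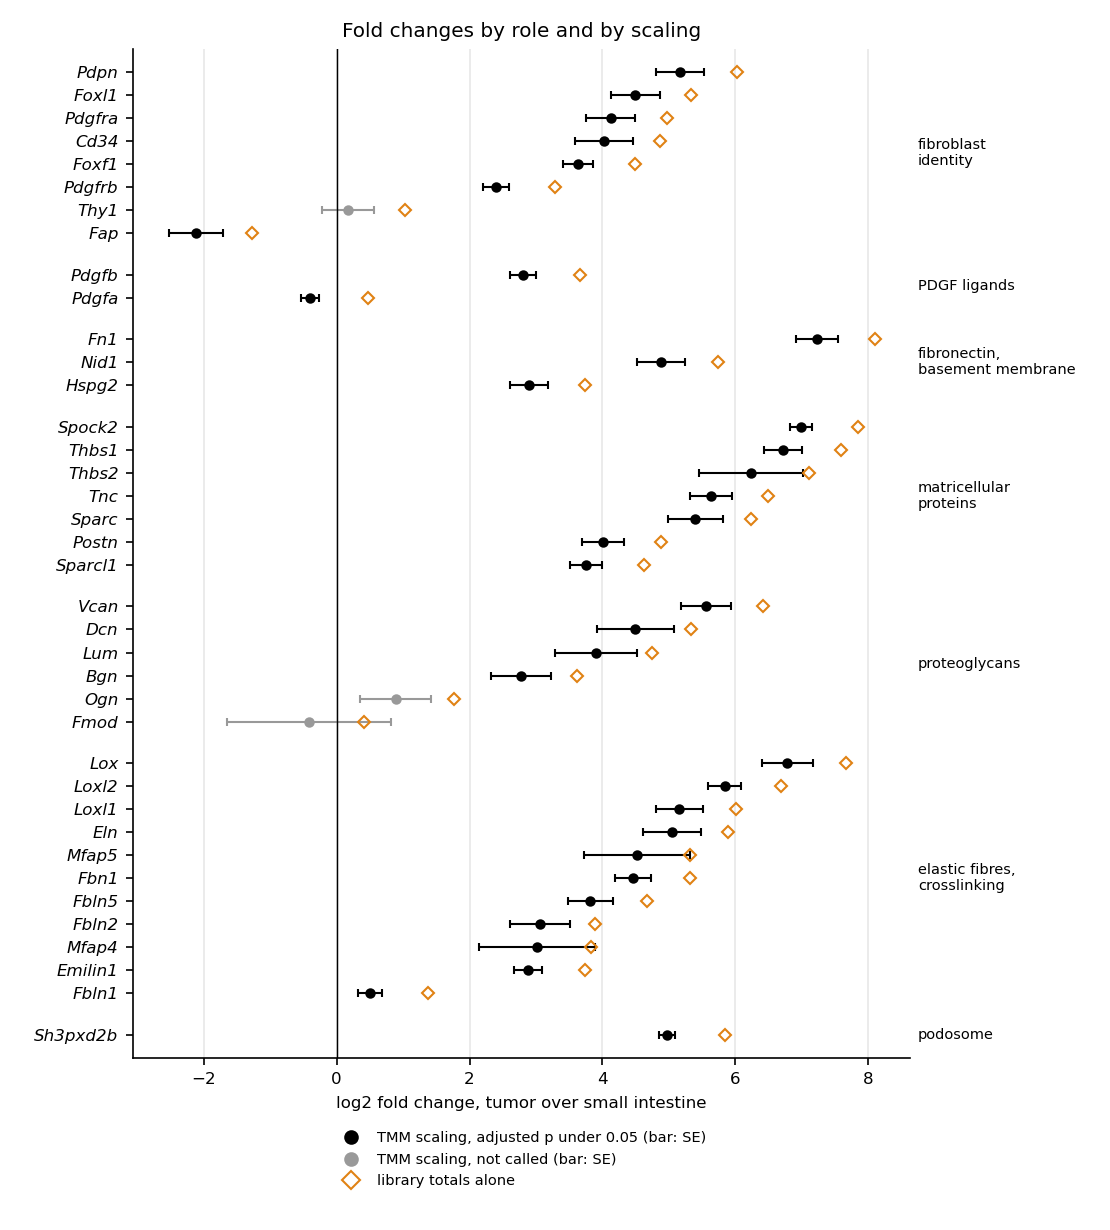
Log2 fold change of each gene, tumor over small intestine, with TMM scaling (filled, bar: SE; grey where not called) and with library totals alone (open diamonds). Library totals shift the genes to the right by a similar amount, which carries Pdgfa and Fmod across 0 and leaves Fap on the left.

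Fibroblast identity genes are those whose products mark mesenchymal cells, and 6 of 8 rose. Pdgfra encodes the PDGF receptor of subepithelial and villus fibroblasts. It stood at 77.3, 77.6, 77.8 and 89.7 CPM in tumor replicates 1 to 4, against 7.29, 6.14, 2.62 and 2.40 CPM in small intestine replicates 1 to 4. All tumor libraries lay more than 10 times above the highest small intestine library, and within small intestine replicates 1 and 2 were above 3 and 4. Pdgfra rose by 4.12 ± 0.37 (SE) on the log2 scale, with an edgeR adjusted p of 7.25e-06. Pdgfrb, the receptor of pericytes and other mural cells as well as fibroblasts, was at 62.9, 52.6, 52.4 and 56.00 CPM over the tumor replicates, against 9.13, 9.21, 8.69 and 15.4 CPM over those of small intestine for replicates 1 to 4. Its tissues did not overlap either, with small intestine replicate 4 above the other 3, and its log2 fold change of 2.40 ± 0.19 was smaller than that of Pdgfra. The pericyte genes Rgs5 and Mcam were at 56.1 ± 4.11 CPM in tumor, against 5.63 ± 0.891 in small intestine, and at 38.1 ± 4.92 CPM in tumor, against 3.77 ± 0.970 in small intestine (SD, n = 4 each), and all 6 tested pericyte markers rose; their part in the Pdgfrb result was not tested.

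Pdpn encodes podoplanin, a membrane glycoprotein of activated fibroblasts and lymphatic endothelium, and had the largest rise among the identity genes. It was at 14.3, 12.9, 10.8 and 11.8 CPM in tumor replicates 1 to 4, against 0.521, 0.442, 0.147 and 0.259 CPM in small intestine replicates 1 to 4, a log2 fold change of 5.17 ± 0.36 (edgeR adjusted p = 1.6e-06). Every tumor library was above 10 CPM and every small intestine library below 1 CPM. Cd34, a sialomucin of stromal, endothelial and blood progenitor cells, was at 18.9, 20.3, 23.3 and 15.8 CPM over the tumor replicates, against 1.96, 1.72, 0.567 and 0.552 CPM over those of small intestine, a log2 fold change of 4.02 ± 0.44. Small intestine replicates 1 and 2 were again the higher ones. All 10 endothelial markers also rose, summing to 223 to 284 CPM in tumor and 13.5 to 33.9 CPM in small intestine, with Cdh5 at 96.8 ± 18.4 CPM in tumor, against 1.65 ± 1.42 in small intestine, and Pecam1 at 36.9 ± 2.50 CPM in tumor, against 10.1 ± 5.63 in small intestine (SD, n = 4 each). Of the 4 tested lymphatic markers 3 rose, Prox1 by 6.54, Flt4 by 2.29 and Reln by 1.52 on the log2 scale. Lyve1 did not pass the test, at a log2 fold change of 0.45. Prox1 averaged 359 CPM in tumor, far above Lyve1 at 8.30, Flt4 at 6.83 and Reln at 3.32 CPM there. The part of endothelial and lymphatic cells in the Cd34 and Pdpn results was not tested.

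Foxf1 and Foxl1 are neighbouring forkhead transcription factor genes of the gut mesenchyme, Foxl1 being a marker of the telocytes beneath the epithelium. Foxf1 was at 17.3, 19.03, 18.4 and 17.8 CPM in tumor replicates 1 to 4, against 2.03, 1.57, 1.03 and 1.19 CPM in small intestine replicates 1 to 4. Foxl1 was less abundant, at 2.27, 2.35, 2.61 and 2.08 CPM over the tumor replicates, against 0.122, 0.0531, 0.168 and 0.0690 CPM over those of small intestine. Both were tight within tumor, where replicates ranged from 17.3 to 19.03 CPM and from 2.08 to 2.61 CPM, and neither overlapped small intestine. Their log2 fold changes were 3.63 ± 0.23 and 4.50 ± 0.37, with edgeR adjusted p of 8.02e-07 and 4.2e-06.

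Thy1 and Fap, both widely used fibroblast markers, did not follow the other 6. Thy1, which in mice is also a surface protein of T cells, was at 10.7, 9.26, 9.11 and 12.9 CPM in tumor replicates 1 to 4, against 7.03, 17.5, 9.03 and 3.83 CPM in small intestine replicates 1 to 4. The tissues overlapped in full, with the highest and the lowest of all 8 values in small intestine replicates 2 and 4. At 0.17 ± 0.39 on the log2 scale, Thy1 was not called (edgeR adjusted p = 0.705). The 7 T and B cell markers summed to 12.8, 15.1, 18.4 and 30.2 CPM across the tumor replicates, against 203, 361, 150.1 and 88.98 CPM across those of small intestine, where replicate 2 was also the highest and replicate 4 the lowest. All 7 of those markers fell in tumor, and their part in the Thy1 result was not tested.

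Fap, a membrane serine protease known from reactive fibroblasts, was low throughout and fell. It was at 0.342, 0.186, 0.740 and 0.338 CPM in tumor replicates 1 to 4, against 2.07, 1.59, 1.95 and 1.35 CPM in small intestine replicates 1 to 4. Each tumor library lay below each small intestine library, and tumor replicate 3 was the highest of its tissue. On the log2 scale Fap fell, at -2.12 ± 0.41 (edgeR adjusted p = 0.00119), and it was called lower with each of the 8 libraries left out in turn. Fap lies 17293 bases from Gcg, the glucagon gene of enteroendocrine cells, which was at 1.01 ± 0.427 CPM in tumor, against 39.8 ± 11.7 in small intestine (SD, n = 4 each). Gcg was chosen after the values of Fap were seen, and its part in the Fap counts was not tested.

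The PDGF ligands split. Pdgfa, which binds PDGFRA and is made by gut epithelium, was at 39.3, 36.98, 37.2 and 30.9 CPM in tumor replicates 1 to 4, against 40.4, 48.97, 42.3 and 58.4 CPM in small intestine replicates 1 to 4. The tissues were close but did not overlap, tumor being the lower by a log2 fold change of -0.40 ± 0.13 (edgeR adjusted p = 0.0221). The call was lost without small intestine replicate 4 and without tumor replicate 2, 3 or 4 (edgeR adjusted p of 0.0508 to 0.0752), and the direction depends on the scaling as given above. A total of 26.1% of its exon length is shared with the antisense gene 6330403L08Rik, at 4.53 ± 0.355 CPM in tumor, against 3.56 ± 0.603 in small intestine (SD, n = 4 each), and the strand setting of the counting is not given in the sources used here. Pdgfb, the ligand that vessels use to recruit pericytes, was at 19.1, 23.5, 18.3 and 20.8 CPM in tumor replicates 1 to 4, against 3.96, 2.41, 2.71 and 2.60 CPM in small intestine replicates 1 to 4. Every tumor library was more than 4 times above every small intestine library, with a log2 fold change of 2.80 ± 0.19 (edgeR adjusted p = 1.36e-06). Among 3 further genes of the system, Pdgfd rose by 4.11 and the receptor-like Pdgfrl by 7.95 on the log2 scale, and Pdgfc did not pass the test at -0.21.

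Fn1 encodes fibronectin, the glycoprotein that links cells to the matrix through integrins, and had the largest rise of the 38 genes. It was at 526, 446, 459 and 277 CPM in tumor replicates 1 to 4, against 2.10, 2.12, 3.44 and 3.73 CPM in small intestine replicates 1 to 4. Tumor replicate 4 was the lowest tumor library and still more than 70 times above the highest small intestine library. Fn1 rose by 7.23 ± 0.32 on the log2 scale (edgeR adjusted p = 1.23e-07). Nid1 and Hspg2 encode nidogen and perlecan, which tie laminin to collagen in basement membranes. Nid1 was at 80.1, 90.01, 81.1 and 88.7 CPM over the tumor replicates, against 4.79, 3.40, 1.43 and 1.86 CPM over those of small intestine, a log2 fold change of 4.88 ± 0.36, with the tumor libraries within a narrow range. Hspg2 was at 84.5, 112, 80.2 and 111 CPM over the tumor replicates, against 14.2, 11.7, 19.3 and 6.95 CPM over those of small intestine, and its log2 fold change of 2.90 ± 0.29 was the smallest of these 3. Among small intestine libraries, replicate 3 had the most Hspg2 and the least Nid1. Of 10 related basement membrane genes 8 rose, with a median of 5.12 over the list. Frem2 rose by 10.33 and Frem1 by 6.84, while Agrn and Fras1 did not pass the test (-0.15 and -0.998). In small intestine Frem2 and Frem1 averaged only 0.0174 and 0.00868 CPM, so the size of these 2 rises is uncertain. Frem1 in tumor was at 1.24 ± 1.27 CPM (SD), with replicate 4 the highest at 3.12 CPM.

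All 7 matricellular genes rose (median 5.63 on the log2 scale), and they summed to 1214 to 1698 CPM in tumor, the largest sum by role there, against 17.1 to 28.5 CPM in small intestine. The elastic fibre genes summed to 285 to 363 CPM in tumor, against 65.5 to 110.3 CPM in small intestine, the largest sum by role in small intestine. Most of that small intestine sum was Fbln1 alone, at 53.2 to 102 CPM. Spock2, a secreted proteoglycan of the SPARC family also called testican 2, was at 456, 464, 319 and 420.5 CPM in tumor replicates 1 to 4, against 3.09, 3.29, 3.34 and 3.38 CPM in small intestine replicates 1 to 4. Its small intestine libraries lay within 10% of one another and its tumor libraries were more than 90 times higher. Spock2 rose by 6.98 ± 0.16 on the log2 scale (edgeR adjusted p = 1.6e-08). Sparc, a collagen-binding glycoprotein, was at 349, 288, 280.2 and 227 CPM in tumor replicates 1 to 4, against 11.5, 8.10, 4.28 and 3.28 CPM in small intestine replicates 1 to 4. Replicates 1 to 4 of small intestine spread more than 3-fold, with 1 and 2 the higher, and the log2 fold change was 5.39 ± 0.42. Its relative Sparcl1 was at 52.1, 46.8, 50.5 and 39.1 CPM over the tumor replicates, against 3.66, 1.98, 3.80 and 4.52 CPM over those of small intestine, the smallest rise of the 7 at 3.75 ± 0.24.

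Thrombospondins bind matrix and growth factors and restrain vessel growth. Thbs1 was at 679, 633, 558 and 371 CPM in tumor replicates 1 to 4, against 5.04, 5.78, 3.74 and 6.71 CPM in small intestine replicates 1 to 4. It had the highest CPM of the 38 genes in tumor replicates 1 to 3, Spock2 being higher in replicate 4, and its log2 fold change was 6.72 ± 0.28 (edgeR adjusted p = 9.88e-08). Thbs2 was at 16.1, 20.6, 8.31 and 59.7 CPM over the tumor replicates, against 0.573, 0.531, 0.126 and 0.138 CPM over those of small intestine. Tumor replicate 4 stood well above the other 3 tumor libraries. The log2 fold change of 6.23 ± 0.79 was 5.48 without that library. Platelets also carry thrombospondin. The platelet marker Pf4 was at 4.54 ± 1.14 CPM in tumor, against 0.203 ± 0.131 in small intestine (SD, n = 4 each). Itga2b was at 4.36 ± 5.63 CPM in tumor, against 1.93 ± 0.697 in small intestine (SD, n = 4 each). Its tumor mean came mostly from replicate 3, at 12.7 CPM against 0.902 to 2.72 in the other tumor libraries. Of 4 tested platelet markers 2 rose, Pf4 and Ppbp, while Itga2b and Gp1ba were not called. Gp9, too low to be tested, averaged 0.0875 CPM in tumor, against 0.304 in small intestine. The part of platelets in the Thbs1 result was not tested.

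Tnc, tenascin C, and Postn, periostin, are matrix proteins of remodelling stroma that bind fibronectin. Tnc was at 110.5, 115, 83.2 and 72.5 CPM in tumor replicates 1 to 4, against 2.88, 1.77, 1.01 and 1.98 CPM in small intestine replicates 1 to 4, a log2 fold change of 5.63 ± 0.32. Postn was at 34.5, 26.4, 33.9 and 24.00 CPM over the tumor replicates, against 1.81, 2.56, 0.840 and 2.12 CPM over those of small intestine, a log2 fold change of 4.01 ± 0.32. For both genes the lowest tumor library was more than 8 times above the highest small intestine library. Among 19 tested relatives of the matricellular genes 17 rose, with a median of 3.14. Ccn4, a Wnt-responsive member of the CCN family, rose by 7.97 and the phosphoprotein gene Spp1 by 7.70 on the log2 scale. Tgfbi, a TGF-beta-induced matrix protein, was the 1 that fell, by 2.54 on the log2 scale, and stood at 190.0 ± 5.25 CPM in tumor, against 1106 ± 227 in small intestine (SD, n = 4 each).

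Promoter windows from RefSeq (GRCm38.p6, 250 bases before to 50 after the start of transcription) were matched for 21 of the 38 genes, in 26 windows. Both strands were searched for short motifs. The core of the TATA box was read as TATAAA. The site of AP-1 factors was read as TGANTCA. That of TEAD factors was read as GGAATG, and that of TCF and LEF factors as TCAAAG. The CArG box of serum response factor was searched too. A pair of windows is shown because both belong to raised matricellular genes and hold a match, which is in capitals.
Spock2 (chr10:60106007-60106306, plus strand): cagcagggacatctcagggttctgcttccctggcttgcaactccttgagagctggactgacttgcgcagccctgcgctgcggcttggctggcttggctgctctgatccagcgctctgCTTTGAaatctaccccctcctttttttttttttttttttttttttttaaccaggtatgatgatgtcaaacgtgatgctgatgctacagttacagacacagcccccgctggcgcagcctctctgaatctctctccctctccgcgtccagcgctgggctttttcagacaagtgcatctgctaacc
Postn (chr3:54360857-54361156, plus strand): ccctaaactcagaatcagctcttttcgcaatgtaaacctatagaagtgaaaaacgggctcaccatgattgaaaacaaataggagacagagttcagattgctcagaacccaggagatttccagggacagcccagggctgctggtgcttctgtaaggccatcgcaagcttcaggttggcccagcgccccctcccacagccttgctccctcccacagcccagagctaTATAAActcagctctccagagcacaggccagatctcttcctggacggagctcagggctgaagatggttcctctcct
In Spock2 the capitals are TCAAAG read on the opposite strand, beginning 133 bases before the start, and in Postn, at 1 of its 2 windows, they are TATAAA, 26 bases before it. The shares among these windows were near those of all 32851 windows. TCAAAG occurred in 15.4% of the 26 windows (Bgn, Fbln2, Fbln5 and Spock2), against 16% of all windows. GGAATG occurred in 11.5% against 14.7%, and TATAAA in 19.2% against 13.6%. TGANTCA and the CArG box matched none of the 26, against 7.81% and 1.63% of all windows, which says only that those letters are not in these windows.

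Of the 6 proteoglycan genes 4 rose. Dcn, decorin, is a small leucine-rich proteoglycan that coats collagen fibrils and a standard fibroblast marker. It was at 274, 247, 248 and 193 CPM in tumor replicates 1 to 4, against 18.8, 16.2, 4.41 and 3.17 CPM in small intestine replicates 1 to 4. Small intestine replicates 1 and 2 were about 4 to 6 times above replicates 3 and 4, the spread behind its SE, and the log2 fold change was 4.50 ± 0.58 (edgeR adjusted p = 7.87e-05). Bgn, biglycan, is a close relative. It was at 176, 108, 133 and 146 CPM over the tumor replicates, against 37.2, 25.9, 9.93 and 9.11 CPM over those of small intestine, with the same order of small intestine replicates and a smaller log2 fold change of 2.78 ± 0.45. Lum, lumican, was at 17.1, 8.44, 13.6 and 4.70 CPM over the tumor replicates, against 1.30, 1.03, 0.252 and 0.328 CPM over those of small intestine, a log2 fold change of 3.90 ± 0.61, and tumor replicate 4 was its lowest tumor library. Vcan, versican, the large hyaluronan-binding proteoglycan, was at 10.8, 6.71, 7.31 and 5.26 CPM over the tumor replicates, against 0.191, 0.212, 0.0840 and 0.138 CPM over those of small intestine. With no small intestine library above 0.22 CPM it had the largest rise of the group, 5.56 ± 0.37 (edgeR adjusted p = 1.21e-06).

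Fmod and Ogn, fibromodulin and osteoglycin, are small leucine-rich proteoglycans best known from tendon, cartilage and bone, and neither passed the test. Fmod was at 0.552, 0.0619, 1.16 and 0.0113 CPM in tumor replicates 1 to 4, against 1.11, 1.10, 0.126 and 0.0173 CPM in small intestine replicates 1 to 4. Within each tissue its values spread more than 50-fold, in tumor with replicates 1 and 3 high and in small intestine with replicates 1 and 2 high. Its fold change was -0.42 ± 1.23 on the log2 scale (edgeR adjusted p = 0.769). It ran from -1.44 without tumor replicate 3 to 0.08 without small intestine replicate 1, and was not called with any library left out. Ogn was at 0.783, 0.681, 0.685 and 0.406 CPM over the tumor replicates, against 0.452, 0.0884, 0.189 and 0.638 CPM over those of small intestine, below 1 CPM in each library, with overlap between small intestine replicates 1 and 4 and tumor replicate 4. Its log2 fold change of 0.89 ± 0.54 had an edgeR adjusted p of 0.158, and without small intestine replicate 4 it was called, at 1.38 (edgeR adjusted p = 0.0464). Of 13 tested relatives 8 rose and 2 fell, and with library totals 11 rose and 1 fell. The glypican gene Gpc3 rose by 8.80 and Hapln3, a hyaluronan link protein gene, by 4.37 on the log2 scale. Podn, podocan, fell by 2.77 and Prg4, lubricin, by 1.07.

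All 11 genes of elastic fibres and crosslinking enzymes rose. Lysyl oxidases crosslink elastin and collagen. Lox was at 24.3, 18.1, 17.9 and 17.8 CPM in tumor replicates 1 to 4, against 0.104, 0.177, 0.0840 and 0.328 CPM in small intestine replicates 1 to 4, and its log2 fold change of 6.78 ± 0.38 was the largest of the group (edgeR adjusted p = 4.39e-07). Loxl2, an oxidase of basement membrane collagen, was at 59.8, 55.9, 46.8 and 50.6 CPM in tumor replicates 1 to 4, against 1.42, 0.707, 0.861 and 0.725 CPM in small intestine replicates 1 to 4, a log2 fold change of 5.84 ± 0.24. Loxl1, the oxidase of elastin assembly, had the lowest CPM of these enzymes in tumor. Loxl1 was at 11.3, 7.89, 7.80 and 7.31 CPM over the tumor replicates, against 0.399, 0.212, 0.147 and 0.190 CPM over those of small intestine, a log2 fold change of 5.16 ± 0.35. Tumor replicate 1 was the highest tumor library for all 3 enzymes. The further lysyl oxidase gene Loxl4 rose by 7.68.

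Eln, elastin, was at 30.1, 20.5, 22.7 and 16.9 CPM in tumor replicates 1 to 4, against 1.29, 0.654, 0.483 and 0.293 CPM in small intestine replicates 1 to 4, a log2 fold change of 5.04 ± 0.43. Fbn1, fibrillin, the scaffold of elastic microfibrils, was at 29.3, 25.2, 25.2 and 24.8 CPM over the tumor replicates, against 1.75, 1.34, 0.756 and 0.880 CPM over those of small intestine, a log2 fold change of 4.46 ± 0.27. Both had tumor replicate 1 as the highest tumor library and small intestine replicate 1 as the highest of its tissue. Emilin1, a glycoprotein at the interface of elastin and microfibrils, was at 51.9, 41.1, 49.4 and 52.5 CPM over the tumor replicates, against 9.10, 6.86, 5.90 and 4.61 CPM over those of small intestine, a log2 fold change of 2.88 ± 0.20. Mfap4, a microfibril-associated protein also linked to vascular and visceral muscle, was at 11.7, 4.77, 7.78 and 3.55 CPM over the tumor replicates, against 2.08, 1.11, 0.126 and 0.104 CPM over those of small intestine. Its small intestine values spread about 20-fold, and the log2 fold change of 3.01 ± 0.87 was 3.93 without small intestine replicate 1. The smooth muscle genes Acta2 and Tagln were at 66.5 ± 5.55 CPM in tumor, against 12.6 ± 6.25 in small intestine, and at 39.8 ± 5.74 CPM in tumor, against 15.9 ± 4.43 in small intestine (SD, n = 4 each), and 6 of 10 smooth muscle markers rose; their part in the Mfap4 result was not tested. Mapk7, which shares 4.63% of the exon length of Mfap4, was at 23.5 ± 0.827 CPM in tumor, against 25.6 ± 4.52 in small intestine (SD, n = 4 each). Gm9913 shares 20.1% of that of Fbn1 and had 14 counts in tumor in all and 0 in small intestine. Mfap5 had 113 counts in tumor in all and 3 in small intestine in all, a ratio of 25 after scaling (95% exact interval 8.32 to 123, covering counting error only).

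The fibulins bridge elastic fibres and basement membranes, and their log2 fold changes ran from 0.51 for Fbln1 to 3.82 for Fbln5. Fbln1 was at 124, 110.1, 113 and 97.4 CPM in tumor replicates 1 to 4, against 75.4, 53.2, 81.9 and 102 CPM in small intestine replicates 1 to 4. Tumor replicate 4 lay below small intestine replicate 4, so the tissues overlapped. The log2 fold change of 0.51 ± 0.18 passed the edgeR test (adjusted p = 0.0275) but not without tumor replicate 1 or without small intestine replicate 1 (edgeR adjusted p = 0.0565 and 0.0666). Fbln2 was at 7.19, 4.42, 6.06 and 4.71 CPM over the tumor replicates, against 1.41, 0.371, 0.462 and 0.431 CPM over those of small intestine, a log2 fold change of 3.06 ± 0.46, and of 3.72 without small intestine replicate 1. Fbln5 was at 13.6, 7.63, 7.47 and 9.58 CPM over the tumor replicates, against 0.972, 0.778, 0.399 and 0.552 CPM over those of small intestine, a log2 fold change of 3.82 ± 0.34, and here the tissues stood far apart. Of 18 tested relatives of elastic fibre genes 16 rose, with a median of 3.97. Pcolce2, a procollagen processing enhancer gene, rose by 5.34, while Tgm2, a transglutaminase gene, and Mfap3 did not pass the test, at 0.49 and -0.22.

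Sh3pxd2b encodes TKS4, a scaffold of podosomes, the adhesions through which cells degrade matrix. It was at 106, 103, 94.98 and 104 CPM in tumor replicates 1 to 4, against 3.54, 3.43, 2.71 and 3.29 CPM in small intestine replicates 1 to 4. Replicates of each tissue agreed closely, and the SE was the smallest of the 38 genes, at a log2 fold change of 4.97 ± 0.11 (edgeR adjusted p = 1.6e-08). Its relative Sh3pxd2a rose by 1.68, and Mmp14, the membrane metalloprotease of invasive adhesions, rose by 4.75 on the log2 scale. Cttn, cortactin, and the kinase gene Src fell by 0.95 and 1.35; with library totals 1 of the 4 podosome genes was called lower.

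Levels can be compared between genes only per length, which the deposited FPKM table allows for 36 of the 38 genes (Foxf1 and Foxl1 have no row there). In tumor the highest was Dcn at 174 ± 22.1 FPKM, then Sparc at 146 ± 24.7, Thbs1 at 109 ± 25.9, Bgn at 86.97 ± 17.6, Spock2 at 84.3 ± 14.5 and Fn1 at 81.3 ± 21.4 FPKM (SD, n = 4 each). Within these 6 genes the mean ± SD ranges of neighbours in the order overlap, so neighbours are not told apart. Fbln1, the next at 48.6 ± 3.73 FPKM, lay below Fn1 beyond their SDs. In small intestine Fbln1 led at 19.1 ± 3.89 FPKM, then Pdgfa at 16.5 ± 2.37, Bgn at 6.89 ± 5.13, Dcn at 3.99 ± 3.004 and Thy1 at 3.46 ± 2.26 FPKM (SD, n = 4 each). Here Fbln1 and Pdgfa lay above the other 3 beyond their SDs, and neither that pair nor Bgn, Dcn and Thy1 are told apart among themselves. Fbln1 and Pdgfa together made up 4.5% to 5% of the summed CPM of the 38 genes in tumor libraries and 41.3% to 64.8% in small intestine libraries. With limma on log2(FPKM + 1), all 31 genes with a mean of at least 1 FPKM over all 8 libraries were called higher, against 64.6% of 12849 genes tested. A gene low in small intestine could pass that filter through its tumor level alone. Fbn1 did so, at 2.75 FPKM in tumor against 0.0787 in small intestine. The count of 31 is therefore no independent support for the direction. Fap, Fmod, Ogn, Vcan and Mfap5 were below the filter and not tested. That scale carries no composition correction and understates changes of low genes.

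**Figure D3:**
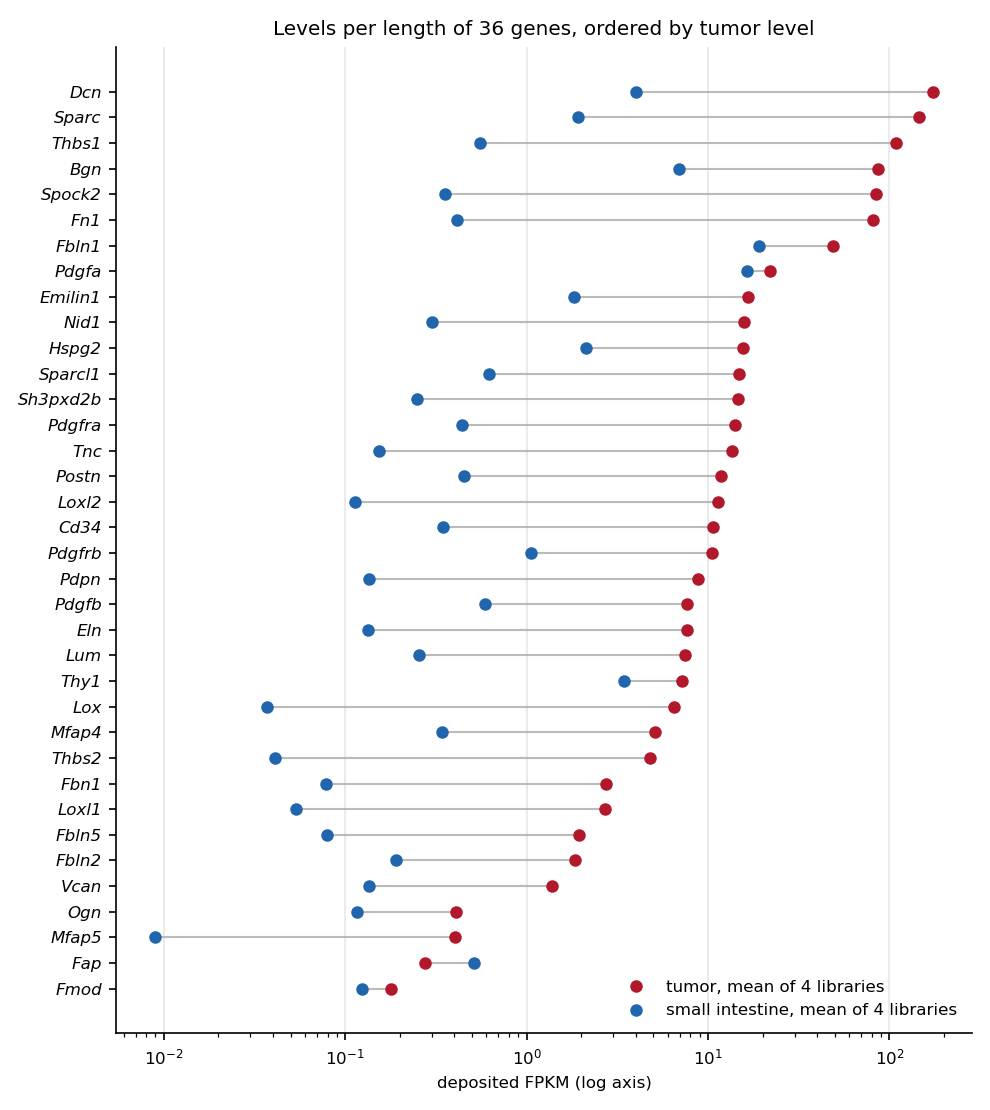
Mean deposited FPKM (log axis) of 36 genes in tumor and in small intestine, ordered by the tumor level. Dcn, Sparc and Thbs1 lead in tumor, Fbln1 and Pdgfa lead in small intestine, and Fap is the 1 gene with its tumor point to the left.

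Ratios of related genes within a library do not depend on scaling, and 16 pairs were compared between tissues with an exact 2-sided permutation test of the log2 ratio of counts, adjusted over the 16 pairs. The smallest p that 4 against 4 libraries allow is 0.0286, which is 0.0416 after adjustment here. For 11 of the 16 pairs the tissues did not overlap and the adjusted p was 0.0416. Pairs that share a gene are not independent, and a ratio of counts is not a ratio of levels per length. The pairs were chosen with earlier results of these data known, so their p-values are no independent support for the fold changes above.

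The balance of the PDGF system differed between tissues on both sides. The log2 ratio of Pdgfb to Pdgfa was -1.04, -0.65, -1.03 and -0.57 in tumor replicates 1 to 4, against -3.35, -4.34, -3.96 and -4.48 in small intestine replicates 1 to 4, a difference of 3.21. That of Pdgfrb to Pdgfra was -0.30, -0.56, -0.57 and -0.68 in tumor, against 0.32, 0.59, 1.72 and 2.68 in small intestine, a difference of -1.85. Pdgfb thus gained on Pdgfa in tumor, and Pdgfra on Pdgfrb (exact permutation adjusted p = 0.0416 for each).

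Among fibulins, the log2 ratio to Fbln1 averaged -4.33 ± 0.23 in tumor and -7.04 ± 0.92 in small intestine for Fbln2 (SD), and -3.57 ± 0.37 in tumor and -6.87 ± 0.82 in small intestine for Fbln5 (SD), differences of 2.71 and 3.30. Both fibulins thus gained on Fbln1 in tumor. Against Dcn, the ratios of Bgn, Fmod and Ogn were lower in tumor by 1.87, 5.52 and 3.70 on the log2 scale. Counts were as few as 1 for Fmod and 5 for Ogn in a small intestine library. Fmod also had only 5 and 1 counts in tumor replicates 2 and 4, and its tumor log2 ratios to Dcn ran from -13.48 to -7.73. Lum to Dcn did not pass, at a difference of -0.82 (exact permutation p = 0.0571, adjusted 0.0761).

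In the SPARC family, Sparcl1 to Sparc differed by -1.75, with values of -2.74, -2.62, -2.47 and -2.54 in tumor, against -1.65, -2.03, -0.17 and 0.46 in small intestine. The ratio was tight in tumor and spread over more than 2 log2 units in small intestine. Postn to Sparc differed by -1.45, Tnc to Fn1 by -1.53 and Loxl1 to Lox by -1.72. Tnc to Fn1 did not hold in the FPKM values (exact permutation adjusted p = 0.133). Thbs2 to Thbs1, Loxl2 to Lox, Mfap5 to Mfap4 and Foxl1 to Foxf1 were not called, with differences of -0.55, -1.03, -0.02 and 0.82; the lowest count of either gene in a small intestine library was 6, 4, 0 and 3 in that order.

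**Figure D4:**
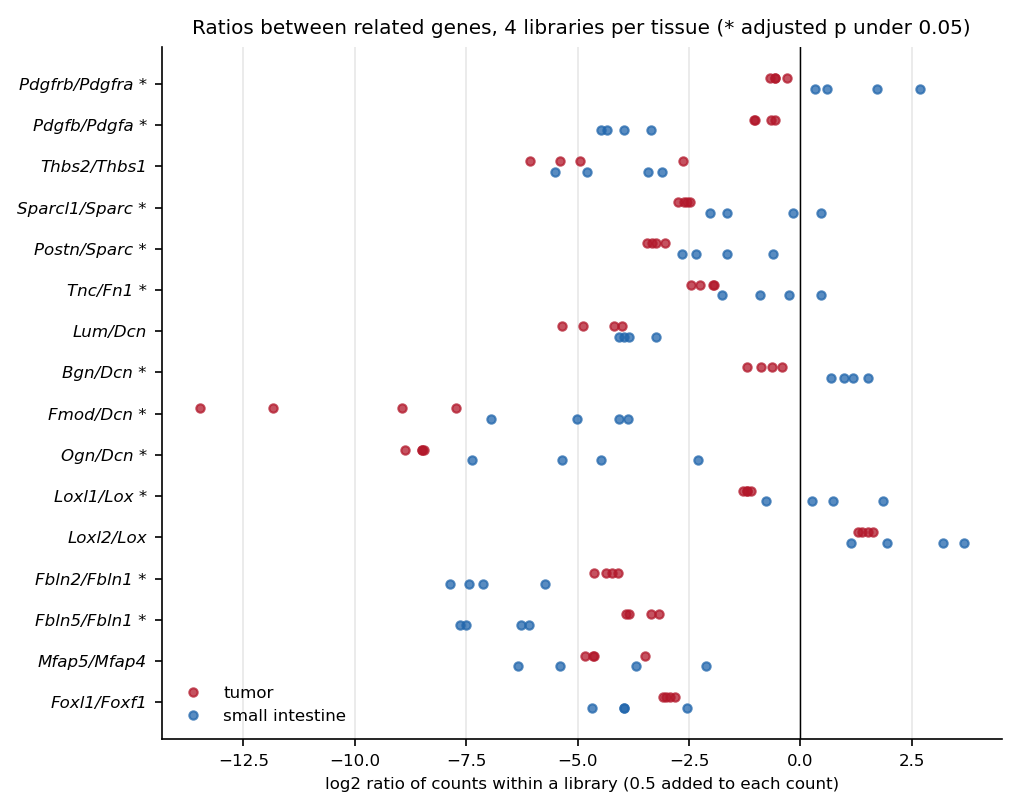
Log2 ratio of counts of 2 related genes within each library, for 4 tumor and 4 small intestine libraries per pair; an asterisk marks an exact permutation p under 0.05 after adjustment over 16 pairs. Tumor points cluster tightly for most pairs while small intestine points spread, and Pdgfb/Pdgfa, Fbln2/Fbln1 and Fbln5/Fbln1 lie further right in tumor.

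The same replicates tended to be high or low over many of these genes. Among the 35 genes with a mean of at least 1 CPM, tumor replicate 1 was the highest tumor library for 22 and replicate 4 the lowest for 18, against 18.5% and 33.1% of 13867 genes at that level. In small intestine, replicate 1 was the highest for 22 of 35, against 19% of all, where its level over the mean of the other 3 had a median of 1.61. Small intestine replicates 1 and 2 both lay above replicates 3 and 4 for 20 of the 38 genes, against 15.3% of all genes tested, a split chosen after the values were seen. Among them were Pdgfra, Cd34, Sparc, Dcn, Bgn, Eln and Mfap4. The endothelial markers, at 33.9, 28.3, 13.5 and 16.3 CPM in small intestine replicates 1 to 4, had replicates 1 and 2 higher too, and the smooth muscle markers, at 73.5, 42.2, 119 and 81.7 CPM, did not.

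Related lists and markers of other cells were set beside these genes, as descriptions of how many were called. All 8 collagen genes of the fibrillar and type VI kinds rose, with a median of 5.65; Col1a1 was at 455 ± 108 CPM in tumor, against 3.99 ± 2.37 in small intestine (SD, n = 4 each) and rose by 6.83, and Col5a2 rose by 6.23. Of 18 tested fibroblast subset genes 17 rose, with a median of 2.80. Bmp5 and Bmp4, which villus-tip fibroblasts secrete, rose by 4.75 and 4.73. Dpp4, which enterocytes carry on their brush border as well as some fibroblasts, fell by 6.75 and stood at 15.4 ± 3.82 CPM in tumor, against 1659 ± 212 in small intestine (SD, n = 4 each).

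Marker lists of other cells of the wall had lower medians than the 38 genes. Smooth muscle markers had a median log2 fold change of 1.14, macrophage markers of 1.20 with 8 of 9 higher, pericyte markers of 3.33 and endothelial markers of 3.55. The macrophage genes C1qa and Cd14 were at 48.2 ± 10.3 CPM in tumor, against 26.04 ± 7.76 in small intestine, and at 71.7 ± 31.8 CPM in tumor, against 12.1 ± 3.56 in small intestine (SD, n = 4 each). Kit and Ano1, of interstitial cells of Cajal, rose by 1.40 and 4.02, and the neural genes Ret and Uchl1 by 1.52 and 3.25. Mesothelial markers split, Msln rising by 1.51 and Upk1b falling by 2.70. Wt1 was near absent from both tissues, at 0 counts in tumor and a mean of 0.00434 CPM in small intestine. Of the adipocyte markers Cidec fell by 3.74, Fabp4 did not pass the test at 0.80, and Adipoq was at 0 counts in tumor. Epithelial markers fell in 7 of 10 cases, with Krt8 at 2334 ± 453 CPM in tumor, against 6198 ± 805 in small intestine, and Vil1 at 375 ± 45.4 CPM in tumor, against 5509 ± 906 in small intestine (SD, n = 4 each), and with library totals 5 fell and 4 rose. All 7 T and B cell markers fell, and 6 with library totals, Cd79a standing at 6.05 ± 3.34 CPM in tumor, against 48.8 ± 34.2 in small intestine, and Cd8a at 4.32 ± 2.33 CPM in tumor, against 37.3 ± 24.2 in small intestine (SD, n = 4 each).

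**Figure D5:**
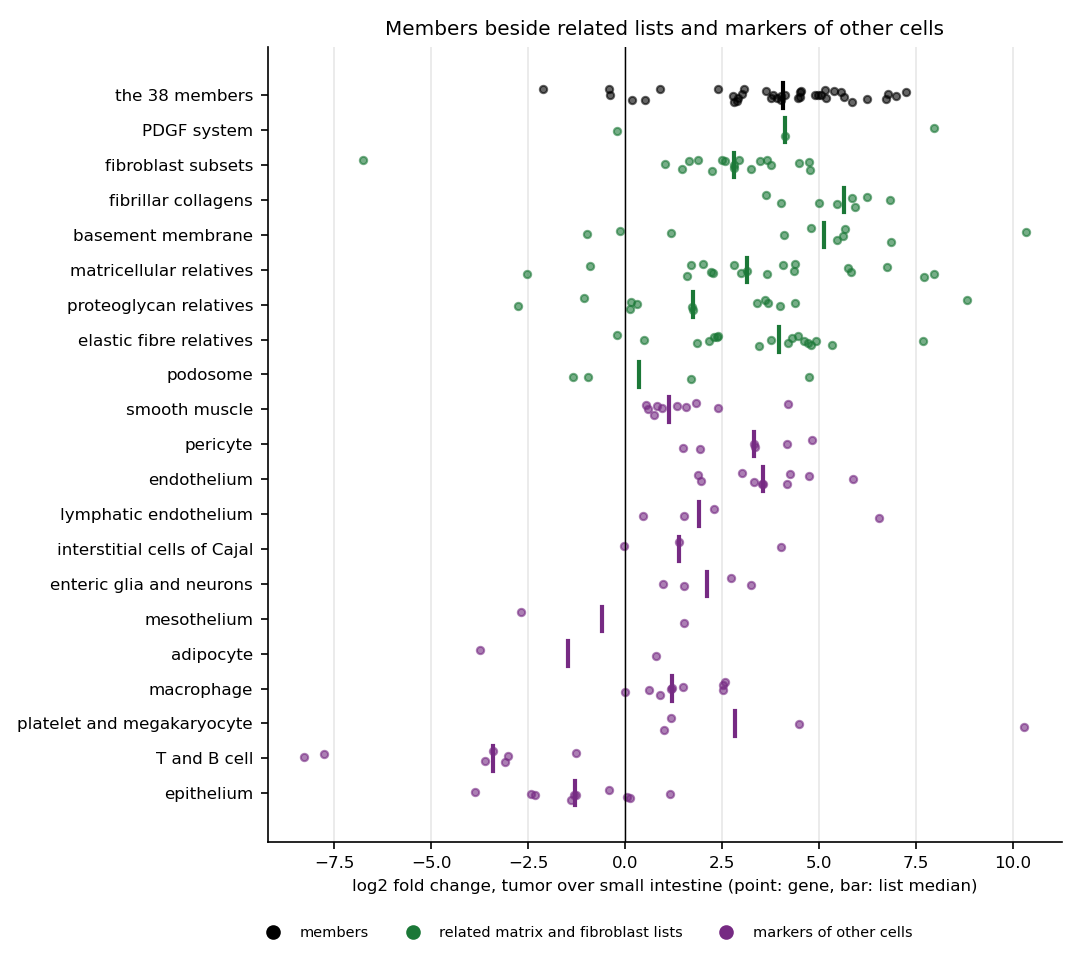
Log2 fold change, tumor over small intestine, of the 38 genes, of related matrix and fibroblast lists and of markers of other cells; a point is a gene and a bar the list median. The median is 4.07 for the 38 genes, 5.65 for the collagens, 1.14 for smooth muscle, 3.55 for endothelium and -3.40 for T and B cell markers.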

How the data were processed

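The authors deposited whole-number counts per gene and, separately, FPKM values scaled for depth and gene length, for all 8 libraries. The tools named are HTSeq 0.6.0, Cufflinks 2.2.1, STAR and FastQC, on GRCm38, per the submitters' processing notes; what each did, the annotation, the strand handling and how shared reads were counted was not stated in the sources used here. Symbols and coordinates came from GENCODE annotation on GRCm38, matched for 42462 of 43629 genes. The members, lists and pairs were chosen with earlier results of these data known.

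Counts were tested with edgeR 4.0.16 in R 4.3.3 (quasi-likelihood, TMM, filterByExpr, tissue as the only term), with Benjamini-Hochberg adjustment over 17029 genes and a threshold of 0.05. Each SE was the size of the fold change divided by the root of its F statistic. FPKM was tested with limma 3.58.1 (trend) at a mean of at least 1 FPKM over all 8 libraries. The edgeR and limma steps were tested on simulated data. Alternatives were other scalings and filters, DESeq2 1.42.0, a 2-fold minimum, a replicate block and each library left out. Counts of 3 correspond to 0.0331 to 0.0630 CPM, a counting-error limit only, since reads carry no molecular identifiers. The small intestine means of Frem1, Frem2, Ccn4, Hapln3, Loxl4 and Pcolce2 were below 0.0518 CPM, so the size of their rises is uncertain. Replicates differed by more than counting noise in every pair (lowest chi-square over its degrees of freedom 38.9). Named with values per library are the largest and smallest fold change by role, members that fell, were not called or had an outlying library, and, beyond that rule, the remaining members; of related lists, the 2 largest rises and falls and, beyond the rule, genes not called; of markers, the 2 most abundant and near-absent glial genes.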

Additional observations from a re-analysis of the deposited data

Results flagged for a closer look

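Among 76 groups of 4 libraries (38 genes in 2 tissues), 7 held a library whose gap to its nearest neighbour passed Dixon's 95% critical value as a share of the group's range; chance gives about 1 in 20. Tumor replicate 1 was such a library for Fbn1 at 29.3 CPM (others 24.8 to 25.2), Lox at 24.3 CPM (others 17.8 to 18.1) and Loxl1 at 11.3 CPM (others 7.31 to 7.89). Tumor replicate 4 was one for Pdgfra at 89.7 CPM (others 77.3 to 77.8). In small intestine, replicate 4 stood at 15.4 CPM for Pdgfrb (others 8.69 to 9.21), replicate 1 at 1.41 CPM for Fbln2 (others 0.371 to 0.462), and replicate 3 at 0 CPM for Mfap5 (others 0.0173 to 0.0177, which is 1 count each). None of these gaps makes the tissues overlap.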

How the results depend on the processing

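The number of the 38 genes called higher was 33, and 31 to 36 under every alternative; all 33 stayed called higher in each count and FPKM setting that tested them, except Fbln1 with a 2-fold minimum and without tumor or small intestine replicate 1. The 2 lower genes became 1 (Fap) with library totals, upper-quartile scaling, no filter on low counts, the replicate block or a 2-fold minimum, and 1 (Pdgfa) at a mean of at least 1 CPM, where Fap was not tested; with 1 library left out there were 1 to 2. In FPKM, 0 were lower, also with a pseudocount of 0.1 and with the block, but Fap was not tested in these settings. Without a filter 1 was lower in FPKM, Fap at -0.24 (limma adjusted p = 0.0405). Pdgfa reversed with library totals (0.48) and in FPKM (0.40; 0.42 with a pseudocount of 0.1). Over all genes, 10564 rose and 2996 fell with library totals; in FPKM 8297 rose and 2326 fell, 8282 and 2328 with a pseudocount of 0.1, 8114 and 2241 with the block, and 11174 and 3007 without a filter. With a 2-fold minimum 4758 rose and 3887 fell. Library totals and FPKM carry no composition correction; beyond that the cause was not tested. With 1 library left out, 6410 to 6814 genes rose and 5629 to 6103 fell. Groups did not overlap for 34 of the 38 genes, and for 35 with library totals.

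Same-numbered libraries share only a number: their deviations correlated at -0.203 to 0.00679, and none was the best match of its number. With that block 6301 genes rose and 5592 fell, and Pdgfa lost its call (-0.39, edgeR adjusted p = 0.07). Of 16 pair ratios 11 were called, 11 without a pseudocount (15 computed), 10 in FPKM (14 pairs computed) and 0 in the paired sign-flip test, whose smallest p is 0.125. With 1 library left out all 128 pair values moved by less than 1 SD; their smallest p would be 0.0571.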
